A study of Mus musculus with 8 samples.

Results

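Kinesins are the motor proteins that use ATP to move along microtubules, and satellite cells are the stem cells of skeletal muscle. The kinesin genes were taken by name: every non-control probe of the mouse array whose gene name is Kif or Kifc followed by a digit. That rule gave 61 of 55681 probes and 42 of 21743 named genes, of which 28 had 1 probe and 14 had several. By their textbook roles the genes were sorted into 14 mitotic kinesins, 17 transport kinesins, 6 kinesins of the cilium and 5 others, the last including the pseudogene Kifc5c-ps. Cenpe is a kinesin of the kinetochore whose name does not follow the rule, and it is given with the spindle proteins.

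The study set satellite cells of injured muscle, taken 3 days after cardiotoxin (a snake venom toxin that kills muscle fibres), against satellite cells of basal, uninjured muscle, to see how gene expression changes when the stem cells leave rest. There were 4 injured and 4 basal samples, called biological replicates, and the labels state no pooling of animals. All 8 came from C57BL/6 mice labelled male and 3 months old, with no transgene or mutation named. The authors' column names mark each sample as WT, read here as wild type. The cells of both groups were sorted as positive for integrin a7 and negative for CD31, CD45, CD11b and Sca1. Each sample's RNA was labelled with Cy3 and put on 1 array.

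Most kinesins walk towards the plus end of the microtubule, while those of the Kifc class walk towards the minus end, and the Kif2 class takes subunits off microtubule ends instead of walking. In a dividing cell the mitotic kinesins build the spindle, move chromosomes and help to separate the daughter cells. In a cell at rest the transport kinesins carry vesicles, mitochondria and RNA, and kinesin-2 carries material into the primary cilium, which many resting cells hold. Satellite cells of uninjured muscle rest outside the cell cycle and divide after injury.

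The share of spots well above background ranged from 50.1% to 56.7% over the arrays, none was saturated, and precision is limited by having 8 arrays. Every level below is a log2 signal minus the 75th percentile of its own array, so that 0 is that percentile, and every difference is injured minus basal on the log2 scale with its standard error (SE, n = 4 each). The median difference of all 13641 genes tested was 0.17. The injured arrays lay on 1 slide and the basal arrays on another, so slide, scan and group cannot be told apart. Pax7, the transcription factor that defines satellite cells, was above background on all 8 arrays, and all 8 satellite cell markers were above background on the basal arrays, whereas Calcr was not on any injured array. Xist, the RNA of the inactive X chromosome, had levels of 1.72, 6.37, 6.55 and 6.57 on injured arrays 1 to 4, against 3.85, 2.15, -1.12 and -4.97 on basal arrays 1 to 4. The Y-linked gene Ddx3y was above background on injured array 1 and all basal arrays and not on injured arrays 2 to 4, although every label says male. The arrays with the high Xist levels were therefore left out in a further fit, given below. Endothelial markers set basal arrays 1 and 2 apart: all 11 were above background there, against 5 or 6 on basal arrays 3 and 4, and those arrays were left out in another fit.

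Of the 42 kinesin genes, 30 were tested, those with a probe well above background on 3 or more arrays of either group. With limma and an adjusted p under 0.05, 13 were higher in injured cells, 6 were lower and 11 were not called, or 43.3% higher and 20.0% lower. Over all genes tested 35.3% were higher and 24.8% lower, so the share of kinesins called in either direction, 63.3%, lay near the 60.1% of all genes. By role, 9 mitotic kinesins were tested and higher, with a median difference of 2.76, but 4 of them could be tested only because they were high on the injured arrays. Of 13 transport kinesins 3 were higher and 5 lower, with a median of -0.17. The difference between the roles was not tested. The groups did not overlap for 12 kinesins higher and 4 lower in injured cells, beside 33.9% and 23.2% of all genes tested (57.2% either way). Because bulk RNA was measured, fewer cells that hold a transcript and less of it per cell cannot be told apart in any of these values.

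**Figure D1:**
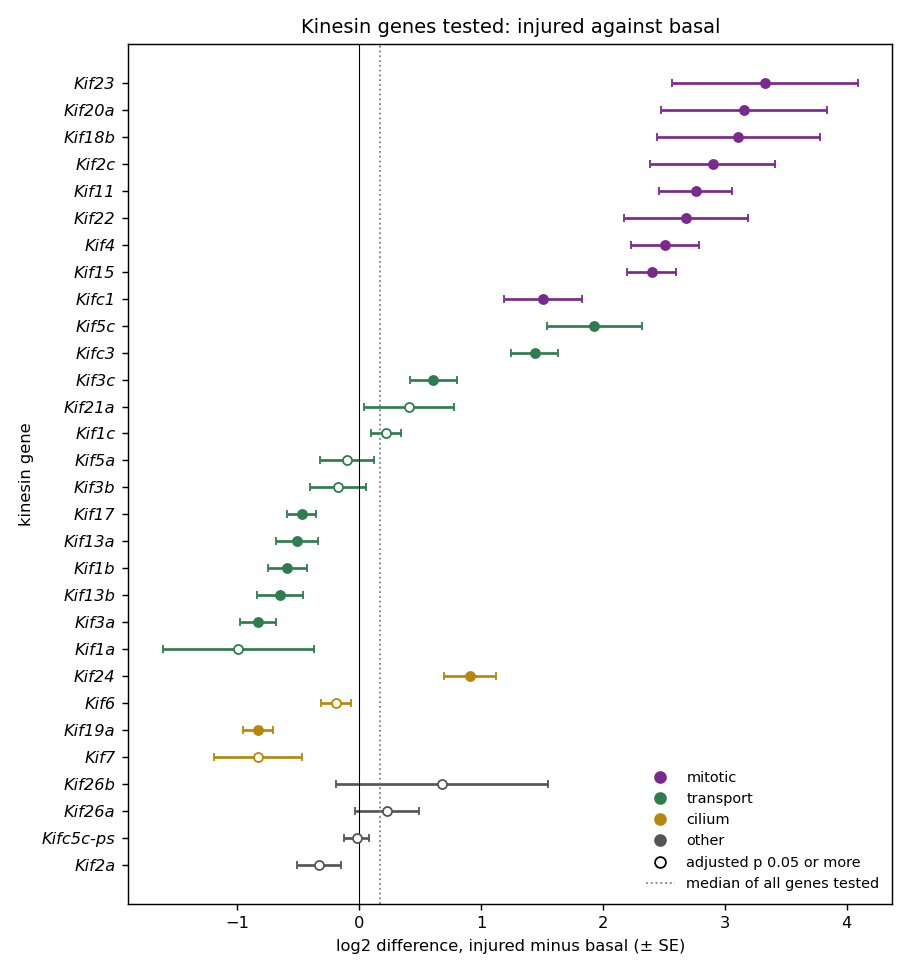
Log2 difference, injured minus basal, of the 30 kinesin genes tested, with bars of ± 1 SE and colours for the role. The 9 mitotic kinesins lie between 1.51 and 3.33, while the transport kinesins lie on both sides of 0, between -0.99 and 1.93.

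The promoters of the kinesins are shown first because the mitotic members, which moved one way, can then be compared by sequence. RefSeq promoters on build GRCm38.p6 matched 13 of the 14 mitotic, 11 of the 17 transport, 5 of the 6 cilium and 4 of the 5 other kinesins by symbol. In the 250 bases before each start, 3 motifs known from cell cycle promoters were searched on both strands: the CHR element (TTTGAA or TTCGAA), the CCAAT box (CCAAT) and the E2F site (TTTGGCGC, TTTCGCGC, TTTGGCGG or TTTCCCGC). In the windows shown, no match of a motif overlaps a match of another. The 120 bases before the start are given 5′ to 3′ on the gene's strand with matches on either strand in capitals. They are given for 5 mitotic kinesins called higher, picked because they hold at least 2 matches near the start. Kifc5b, which was above background on no array, also holds 2 such matches (CCAAT at 46 and 17 bases) and is not shown.
Kif11: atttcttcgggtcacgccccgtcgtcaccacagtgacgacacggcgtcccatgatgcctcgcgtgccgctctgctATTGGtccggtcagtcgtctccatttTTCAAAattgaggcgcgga
Kif22: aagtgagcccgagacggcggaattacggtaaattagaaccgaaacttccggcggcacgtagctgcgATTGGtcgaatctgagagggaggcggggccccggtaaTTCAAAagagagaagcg
Kif15: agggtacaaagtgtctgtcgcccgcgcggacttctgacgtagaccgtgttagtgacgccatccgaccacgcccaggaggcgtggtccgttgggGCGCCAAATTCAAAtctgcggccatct
Kif18b: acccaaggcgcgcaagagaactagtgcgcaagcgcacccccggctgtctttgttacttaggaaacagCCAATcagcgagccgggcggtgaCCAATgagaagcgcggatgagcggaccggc
Kifc1: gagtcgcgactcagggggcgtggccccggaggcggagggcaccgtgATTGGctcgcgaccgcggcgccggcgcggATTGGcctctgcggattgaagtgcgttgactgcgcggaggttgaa
These windows are chr19:37376262-37376381, plus strand for Kif11; chr7:127042421-127042540, minus strand for Kif22; chr9:122950961-122951080, plus strand for Kif15; chr11:102925125-102925244, minus strand for Kif18b; and chr17:33890634-33890753, minus strand for Kifc1.

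In Kif11 and Kif22 a CHR match began 19 and 17 bases before the start, with a CCAAT match at 45 and 54 bases. In Kif15 the CHR match, also 19 bases before the start, directly followed an E2F match at 27 bases. Kif18b held CCAAT matches at 53 and 30 bases, and Kifc1 at 74 and 45 bases. A pair of transport kinesins that moved in opposite directions is set beside them: Kif3a, lower in injured cells, and Kif5c, higher.
Kif3a: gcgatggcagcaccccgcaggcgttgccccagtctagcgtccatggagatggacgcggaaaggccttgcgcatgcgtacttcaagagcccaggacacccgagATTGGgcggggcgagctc
Kif5c: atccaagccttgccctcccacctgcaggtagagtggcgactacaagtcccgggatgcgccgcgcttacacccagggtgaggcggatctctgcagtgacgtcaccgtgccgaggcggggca
The windows are chr11:53567249-53567368, plus strand for Kif3a and chr2:49619166-49619285, plus strand for Kif5c. Kif3a held a CCAAT match 18 bases before the start, and the Kif5c window held none of the letters searched. In the whole 250 bases, a CHR match was found in 5 of 13 mitotic kinesins (38.5%), against 1 of 11 transport kinesins (9.09%) and 19.6% of all 27025 genes with a promoter. The cilium kinesins held one in 2 of 5 (40.0%) and the other kinesins in 1 of 4 (25.0%). A CCAAT match was found in 9 mitotic kinesins (69.2%), against 3 transport kinesins (27.3%) and 37.5% of all genes, while 3 of the 5 cilium kinesins and 1 of the 4 other kinesins held one. The E2F site was found in Kif15 and Kif18a (15.4% of the mitotic kinesins), in no transport kinesin of 11, and in 2.26% of all genes. A CHR or CCAAT match was held by 11 mitotic kinesins (84.6%), 4 transport kinesins (36.4%) and 49.1% of all genes. These are counts of letters in few promoters, and no test was made on them. The starts are those of RefSeq, and whether transcription begins at each was not checked. The windows of Kif14, Kif2c, Kif27 and 1 of the Kif1a starts, which hold CHR matches, end in AG as introns do. They may therefore lie within the gene, which was not tested.

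The mitotic kinesins that drive the spindle poles apart and keep them apart were higher in injured cells. Kif11, the motor that slides the spindle's microtubules outwards, had levels of 0.27, 0.49, -0.39 and 0.13 on injured arrays 1 to 4, against -3.44, -2.60, -2.30 and -2.22 on basal arrays 1 to 4. The groups did not overlap, 3 of the basal arrays were above background, and the difference was 2.76 ± 0.30 (limma adjusted p = 1.2e-04). Kif15, which helps Kif11 to hold a bipolar spindle, had -2.66, -2.42, -2.53 and -2.38 on the injured arrays, against -4.31, -5.03, -5.20 and -5.06 on the basal arrays. Kif15 was above background on 3 injured arrays and no basal array, so its difference is a bound: at least 1.23-fold higher, with mean levels of -2.5 and -4.90 as measured (limma adjusted p = 3.9e-05). Kifc1, a minus-end motor that gathers microtubules at the poles, had 1.63, 1.86, 1.74 and 1.58 on the injured arrays, against 0.77, 0.16, -0.81 and 0.66 on the basal arrays. All 4 injured arrays lay above the highest basal array, by a mean difference of 1.51 ± 0.32 (limma adjusted p = 0.00378). Kifc1 has near copies in Kifc5b and Kifc5c-ps, and which of them a probe reads is uncertain.

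The chromokinesins, which bind chromosome arms, were also higher. Kif22, which pushes chromosome arms towards the spindle equator, had 2.27, 2.45, 2.20 and 1.89 on the injured arrays, against 0.81, 0.15, -1.76 and -1.12 on the basal arrays. It was above background on all 8 arrays, the groups did not overlap, and the difference was 2.68 ± 0.51 (limma adjusted p = 0.00206). Kif4, which helps to compact chromosomes and works with Prc1 at the spindle midzone, had 0.28, 0.14, 0.13 and -0.27 on the injured arrays, against -1.67, -3.04, -2.51 and -2.53 on the basal arrays. All injured and 3 basal arrays were above background, the difference was 2.51 ± 0.28 (limma adjusted p = 1.3e-04), and the injured array with the low Xist level was the highest of its group for this X-linked gene.

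Kinesins that shorten microtubules differed by about as much. Kif2c, the depolymerase that corrects wrong attachments at centromeres, had 0.64, 0.58, 0.61 and 0.35 on the injured arrays, against -1.21, -1.53, -3.01 and -3.68 on the basal arrays, of which 2 were above background. The difference was 2.90 ± 0.51 (limma adjusted p = 0.00134). Kif18b, which trims the astral microtubules, had -1.17, -1.15, -1.40 and -1.20 on the injured arrays, against -1.96, -5.08, -5.15 and -5.16 on the basal arrays. Basal array 1 was the only basal array above background for Kif18b, and the difference was 3.11 ± 0.67 (limma adjusted p = 0.00399). Without that array no basal array was above background, and the value is then a bound, at least 3.1-fold higher.

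Motors of cell separation were higher too. Kif23, which with Racgap1 forms the centralspindlin complex that places the cleavage furrow, had 3.41, 3.55, 3.14 and 3.00 on the injured arrays, against 1.68, 0.91, -2.41 and -0.40 on the basal arrays. The injured arrays lay close together while the basal arrays were spread widely, and the difference was 3.33 ± 0.76 (limma adjusted p = 0.00527), or 2.54 without basal array 3. Kif20a, which carries the chromosomal passenger complex to the midzone, had 1.28, 1.15, 1.46 and 0.92 on the injured arrays, against 0.14, -1.82, -3.63 and -2.52 on the basal arrays. The groups did not overlap, although 2 basal arrays were above background, and the difference was 3.16 ± 0.68 (limma adjusted p = 0.00378), or 3.86 without basal array 1. Kif14, which works with citron kinase in cytokinesis, was above background on no array, as were Kif18a, which aligns chromosomes, Kif20b, Kif2b and Kifc5b. Whether those 5 probes can detect their transcripts was not tested.

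**Figure D2:**
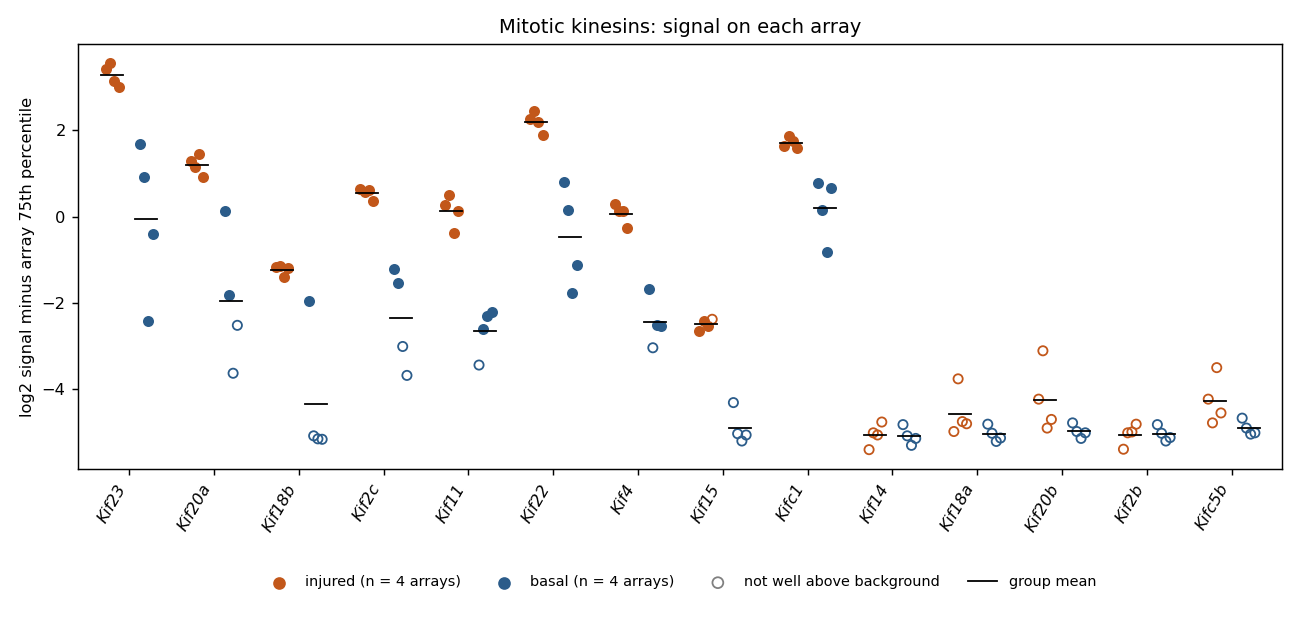
Level of each of the 14 mitotic kinesins on each array (log2 signal minus the array's 75th percentile), injured arrays left of basal arrays, with open symbols for probes not well above background. In the 9 genes tested every injured array is above every basal array, and the other 5 genes are well above background on no array.

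How the mitotic kinesins were selected for testing bears on their count. Of the 9, 5 (Kif11, Kif22, Kif23, Kif4 and Kifc1) passed the filter on dim probes in both groups. The other 4 (Kif15, Kif18b, Kif20a and Kif2c) passed through the injured arrays alone, which favoured a higher value there. The count of 9 of 9 is therefore a description. With Kif15 set at its bound the median difference stayed at 2.76, as it had to, because Kif15 already lay below the median. Kif18b, Kif20a and Kif2c, partly below background on the basal arrays, kept their measured values in that median. With normexp and an offset of 50 in place of the scanner's own subtraction, the median was 1.26 with quantile normalization and 1.25 with the 75th percentile, and all 9 were still called. The correction and the offset were not tried apart.

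The basal arrays, and not the injured ones, carried the spread among the mitotic kinesins. The median SD between arrays was 0.22 in the injured group and 1.17 in the basal group for mitotic kinesins, against 0.14 injured and 0.36 basal for transport kinesins. Relative to each gene's mean over the 8 arrays, the median mitotic kinesin stood at 1.53, 1.53, 1.34 and 1.30 on injured arrays 1 to 4, against -0.18, -1.33, -2.10 and -1.98 on basal arrays 1 to 4. Basal array 1 was thus the highest basal array, and Kif11 was the exception among those tested, with its lowest level there. Other cell cycle genes also had their highest basal level on that array: the proliferation antigen Mki67 had levels of 2.90, 3.03, 2.83 and 2.79 on the injured arrays, against 1.33, 0.13, -1.0 and 0.50 on the basal arrays. Cyclin B1 (Ccnb1), which drives entry into mitosis, had 4.10, 4.29, 3.77 and 3.58 on the injured arrays, against 1.60, 0.19, -3.39 and -0.55 on the basal arrays, and its partner kinase Cdk1 differed by 3.56 ± 0.92 (limma adjusted p = 0.00941).

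Endothelial markers and markers of differentiating muscle also stood higher on basal arrays 1 and 2 than on basal arrays 3 and 4, by their medians. The median endothelial marker tested stood at -0.78, -0.86, -0.77 and -0.75 on the injured arrays, against 2.60, 1.92, -0.76 and -0.23 on the basal arrays, relative to each gene's own mean. For differentiating muscle the medians were 1.44, 1.21, 2.72 and 2.78 on the injured arrays, against -0.52, -1.35, -1.85 and -3.23 on the basal arrays. Fibro-adipogenic markers ran the other way over basal arrays 1 to 4, at 0.93, 1.22, 1.45 and 1.89. Of 8 endothelial markers tested, 1 was higher and 2 lower in injured cells, and the log2 of their summed signal, on the same scale, was 3.29 to 3.59 on the injured arrays and 4.53 to 5.46 on the basal arrays. With basal arrays 1 and 2 left out, all 9 mitotic kinesins were still called higher, with a median of 3.65. On the remaining basal arrays Kif15, Kif18b, Kif20a and Kif2c were not above background, and with these 4 at their bounds the median was 2.59. With injured arrays 2 to 4 left out, the median was 2.91 and 3 mitotic kinesins were called, Kif11, Kif15 and Kif4, where injured array 1 is assumed to vary like the basal arrays. Of 9 leukocyte markers tested 2 were higher and 1 lower, with sums of 8.95 to 9.19 on the injured arrays and 8.89 to 9.08 on the basal arrays. Itgam carried that sum, and without it the sums were 5.29 to 5.40 on the injured arrays and 5.52 to 5.64 on the basal arrays. Itgam encodes CD11b, for which the cells were sorted as negative, yet its level was 8.74 to 9.09 over the 8 arrays. What its probe reads was not tested. The higher markers, looked up after the values were seen, were Laptm5 at 3.97 and Tyrobp at 1.99, which could be tested only through the injured arrays. Laptm5 had 0.50, 0.45, 0.36 and -0.05 on the injured arrays, against -1.68, -3.28, -5.25 and -4.41 on the basal arrays, so that basal array 1 was its highest basal array too. Of the 8 satellite cell markers 2 were higher and 5 lower, with sums of 6.17 to 6.31 on the injured arrays and 6.65 to 7.08 on the basal arrays. Pax7 differed by -2.95, and Cd34 (-2.85) and Sdc4 (-1.86), also looked up afterwards, were lower. The 2 higher markers were Itga7 (1.13), the integrin on which the cells were sorted, and Myod1 (0.77), while Cdh15 was not called (0.12). Of 10 pericyte and smooth muscle markers tested 6 were lower, with sums of 6.01 to 6.54 on the injured arrays and 7.23 to 7.72 on the basal arrays. Fibro-adipogenic markers were lower in 4 of 5 tested (2.75 to 3.24 injured, 5.74 to 6.41 basal), and of their list Pdgfra and Cd55 were above background on no array. Schwann cell markers were lower in 3 of 4 tested (0.841 to 1.09 injured, 1.63 to 4.97 basal). Markers of differentiating muscle were higher in 8 of 8 tested, of which Mymx, Tnnt2 and Ttn passed the filter through the injured arrays alone. Their list had sums of 4.45 to 6.08 on the injured arrays and -0.122 to 2.83 on the basal arrays. Beside all these marker counts, 35.3% of all genes tested were higher and 24.8% lower. The part of these other cells in the kinesin differences was not tested.

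Proteins that work with the mitotic kinesins on the spindle were higher as well: of 19 tested, 17 rose (89.5%, beside 35.3% of all genes tested), 1 fell and 1 was not called, with a median of 2.42. Anln, Ect2 and Nusap1 passed the filter through the injured arrays alone, which favoured a higher value there. The largest differences were those of the cytokinetic scaffold anillin (Anln, 3.69), the passenger subunit borealin (Cdca8, 3.61), the spindle pole kinase Aurka (3.41) and Ect2 (3.22), which centralspindlin recruits to the midzone. Cenpe, the kinetochore kinesin, had 1.56, 1.61, 1.54 and 1.31 on the injured arrays, against 0.35, -0.42, -2.67 and -0.91 on the basal arrays. It was above background on all 8 arrays without overlap, at 2.42 ± 0.55 (limma adjusted p = 0.00504). Racgap1, the partner of Kif23, and Prc1, the partner of Kif4, were looked up after the values were seen and differed by 1.85 and 2.24. Hmmr, a microtubule-binding spindle protein, ran the other way, with 3.70, 3.57, 3.63 and 3.70 on the injured arrays, against 4.66, 4.57, 4.57 and 4.48 on the basal arrays. Its difference was -0.92 ± 0.11 (limma adjusted p = 1.8e-04).

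Among the transport kinesins the kinesin-1 heavy chains, which carry vesicles and mitochondria with the help of light chains, did not share a call. Kif5c had levels of -0.76, -0.71, -0.52 and -0.66 on injured arrays 1 to 4, against -2.21, -1.99, -3.92 and -2.27 on basal arrays 1 to 4. The groups did not overlap, basal array 3 was far below the other basal arrays and alone not above background, and the difference was 1.93 ± 0.39 (limma adjusted p = 0.00270). Kif5a, read by 10 spots on each array, had -1.96, -2.32, -2.10 and -1.97 on the injured arrays, against -2.13, -2.54, -1.65 and -1.63 on the basal arrays, and these overlapped (-0.10, limma adjusted p = 0.711). The spots of Kif5a on a given array had an SD of 0.23 to 0.55. Kif5b, the heavy chain found in most tissues, was above background on 2 injured arrays and 1 basal array and was not tested. Whether its only probe can detect the transcript well was not examined.

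Kinesin-2, the heterotrimer that moves cargo into cilia and along microtubules, also split. Kif3a, a motor subunit, had 0.02, -0.33, 0.17 and -0.03 on the injured arrays, against 0.74, 0.79, 0.63 and 0.99 on the basal arrays. Every injured array lay below every basal array, at -0.83 ± 0.15 (limma adjusted p = 0.00142). Kif3c, which can take the place of Kif3b beside Kif3a, had -0.31, -0.14, -0.19 and -0.44 on the injured arrays, against -1.18, -1.02, -0.96 and -0.36 on the basal arrays. It was higher by 0.61 ± 0.19 (limma adjusted p = 0.0212), with basal array 4 inside the injured range. That call was lost without injured array 2, injured array 3 or basal array 2 (adjusted p = 0.0507 to 0.0586). Kif3b itself was not called (-0.17, adjusted p = 0.556), and neither was Kifap3, the subunit that links the motor to cargo (0.06, adjusted p = 0.813). Kif17, a kinesin-2 that works as a homodimer, had 1.35, 1.20, 1.28 and 1.51 on the injured arrays, against 1.71, 1.83, 1.85 and 1.81 on the basal arrays. The groups lay apart by a small difference, -0.47 ± 0.12 (limma adjusted p = 0.00803).

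Kinesin-3 motors, which carry synaptic vesicle precursors, mitochondria and endosomes, were lower where they were called by their brightest probe. Kif1b had 0.13, 0.28, 0.42 and 0.30 on the injured arrays, against 0.66, 0.62, 1.24 and 0.95 on the basal arrays. Its groups did not overlap, at -0.59 ± 0.16 (limma adjusted p = 0.0133). Kif13b had -1.55, -1.33, -1.25 and -1.11 on the injured arrays, against -1.12, -0.41, -0.40 and -0.72 on the basal arrays. Basal array 1 lay within the injured range, the difference was -0.65 ± 0.19 (limma adjusted p = 0.0167), and the call was lost without injured array 1 (adjusted p = 0.0516). Kif13a, which moves recycling endosomes, had -1.03, -0.81, -0.76 and -0.93 on the injured arrays, against -0.82, -0.30, -0.14 and -0.26 on the basal arrays. Basal array 1 again lay inside the injured range, at -0.51 ± 0.17 (limma adjusted p = 0.0294). Leaving out any of injured arrays 1, 2 and 4 or basal arrays 2, 3 and 4 ended the Kif13a call (adjusted p = 0.0538 to 0.0812).

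Kifc3, a minus-end motor known from cell junctions of epithelia, was the other clear rise among the transport kinesins. It had -0.52, -0.50, -0.37 and -0.43 on the injured arrays, against -1.71, -1.50, -2.0 and -2.38 on the basal arrays. The groups stood apart by 1.44 ± 0.19 (limma adjusted p = 3.1e-04). Its relative Kifc2 was above background on 2 basal arrays and no injured array, which bounds it as at least 1.59-fold lower in injured cells (mean levels of -4.93 injured and -2.10 basal), without a test.

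Kif1a, the synaptic vesicle kinesin, was not called at -0.99 (adjusted p = 0.198). It had -2.55, -2.89, -2.59 and -2.62 on the injured arrays, against 0.29, -3.14, -1.59 and -2.28 on the basal arrays. Basal array 1 stood high, and the value was -0.33 without it, and -1.47 with an adjusted p of 0.0467 without basal array 2. Kif21a, which restrains microtubule growth at the cell edge, was not called at 0.41 (adjusted p = 0.358), but was at 0.81 without basal array 3 (adjusted p = 0.00385). Kif1c was not called at 0.22 (adjusted p = 0.156), and Kif16b and Kif21b did not pass the filter. With basal arrays 1 and 2 left out, 2 transport kinesins were higher and 7 lower, with a median of -0.45. In the authors' deposited table, where the median of all genes was 0.47, Kif13a (1.20), Kif17 (0.78), Kif1b (0.55) and Kif3c (-0.02) had the opposite sign without being called, and limma called no transport kinesin lower there, adjusted or unadjusted.

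**Figure D3:**
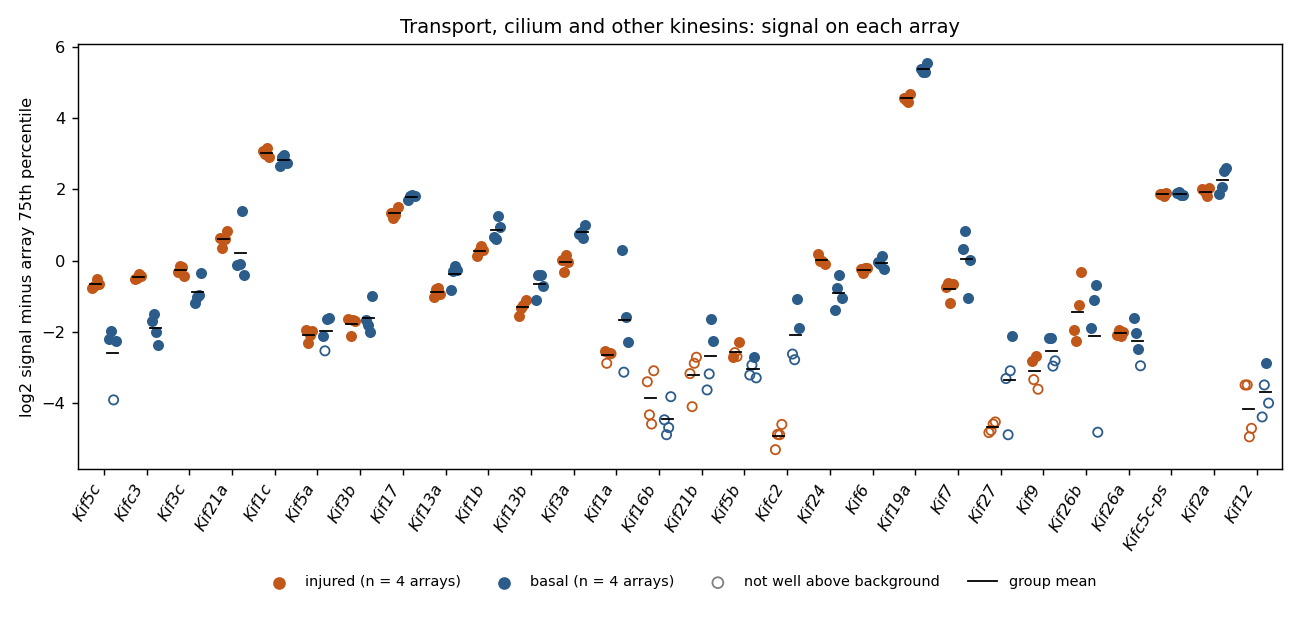
Level of each of the 17 transport, 6 cilium and 5 other kinesins on each array (log2 signal minus the array's 75th percentile). Injured arrays lie left of basal arrays, with open symbols for probes not well above background. Of the genes called, Kif5c, Kifc3 and Kif24 are higher on all 4 injured arrays than on any basal array. Kif3a, Kif1b, Kif17 and Kif19a are lower on all 4 injured arrays than on any basal array.

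Among the kinesins of the cilium the calls also went both ways. Kif24, which holds back the growth of primary cilia from the mother centriole, had 0.18, -0.02, -0.02 and -0.09 on the injured arrays, against -1.38, -0.77, -0.41 and -1.06 on the basal arrays. The injured arrays all lay higher, by 0.91 ± 0.21 (limma adjusted p = 0.00487). Kif19a, which limits the length of motile cilia, had 4.57, 4.52, 4.45 and 4.69 on the injured arrays, against 5.38, 5.31, 5.31 and 5.55 on the basal arrays. Both ranges were narrow and apart, at -0.83 ± 0.12 (limma adjusted p = 4.6e-04), whereas the authors' deposited table had 0.21, not called. Kif7, the cilium-tip regulator of hedgehog signalling, had -0.74, -0.62, -1.20 and -0.66 on the injured arrays, against 0.32, 0.82, -1.04 and 0.01 on the basal arrays. It was not called at -0.83 ± 0.36 (adjusted p = 0.0759), but was without basal array 3 (-1.19, adjusted p = 0.00366). Kif6 was not called (-0.19, adjusted p = 0.206), and Kif27 and Kif9 did not pass the filter.

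Of the other kinesins 4 were tested and not called: the depolymerase Kif2a at -0.33 (adjusted p = 0.155), Kif26a at 0.23 (adjusted p = 0.481), Kif26b at 0.68 (adjusted p = 0.516) and Kifc5c-ps at -0.02 (adjusted p = 0.868). No unadjusted limma p of these 4 was under the threshold. Kif2a was called at -0.45 without basal array 1 (adjusted p = 0.0409), and Kif26b stood at -0.21 without basal array 4. Kif12 was above background on 1 basal array and not tested.

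Several transport kinesins gave different answers depending on which probe was read. In a fit over all probes, 40 kinesin probes were tested, of which 18 were higher, 8 lower and 14 not called, beside 31.7% higher, 25.1% lower and 56.9% called of all 31313 probes tested. Kif1b is the clearest case, because the array files assign its probes to different transcript variants. The brighter probe, for transcript variant 2 at chr4:148550431-148550490 (mm9), gave -0.59 (limma adjusted p = 0.0149). The probe for transcript variant 1, at chr4:148608412-148608471 (mm9), had -1.11, -0.67, -1.0 and -0.59 on the injured arrays, against -1.70, -1.84, -1.57 and -2.32 on the basal arrays. That probe was higher on every injured array, at 1.01 (limma adjusted p = 0.00272). Kif1b transcripts are known to encode motors with different tails, one for mitochondria and one for synaptic vesicle precursors.

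Kif3b was not called by its brighter probe, whereas its other probe had -1.18, -1.12, -1.34 and -1.48 on the injured arrays, against -3.74, -2.18, -4.19 and -1.76 on the basal arrays (1.69, limma adjusted p = 0.0207). That probe was above background on 2 of the 4 basal arrays. Kif2a gave -0.33, 0.51 and 0.70 with its 3 probes, of which the positive values were called (limma adjusted p = 0.0345 and 0.0195). Kif1c gave 0.22, -0.14 and -0.52, of which only the last was called (limma adjusted p = 0.0122). The probes of Kif3a gave -0.83 and -0.27, with the smaller value not called (limma adjusted p = 0.225). The dimmer probe of Kifc5c-ps had -1.78, -1.53, -1.37 and -1.03 on the injured arrays, against 0.92, 0.44, 0.71 and 1.03 on the basal arrays, at -2.20 (limma adjusted p = 5.7e-05). Both Kif2c probes were called higher, at 2.90 and 2.17 (limma adjusted p = 0.00151 and 0.0469). The groups of the dimmer probe overlapped, and each probe was above background on 2 basal arrays.

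The difference between probes of a gene was compared between groups within each array, with an exact two-sided permutation test in which 4 against 4 arrays cannot give a p under 0.0286. Of 12 pairs, 7 reached that smallest value (adjusted 0.049): the Kif1b, Kif3a, Kif3b and Kifc5c-ps pairs, 2 Kif2a pairs and 1 Kif1c pair. The pairs of Kif2a share probes, as do those of Kif1c. How many of all same-gene probe pairs on the array reach this value was not worked out, so 7 of 12 is a description. By level, a different measure, the groups did not overlap for 57.2% of all genes tested. The dimmer minus the brighter Kif1b probe averaged -1.12 ± 0.25 in injured and -2.73 ± 0.41 in basal cells (SD, n = 4 each), a shift of 1.60. For Kif3b the shift was 1.85, against basal values partly below background, for Kif2a 0.83 and 1.03, for Kif3a 0.57, for Kif1c -0.74 and for Kifc5c-ps -2.18. Kif7 and Kif2c, with 1 pair each, and the other pairs of Kif1c and Kif2a did not reach it (exact p = 0.0571 to 0.5429). Where probes of a gene were averaged, Kif1b stood at 0.21 and was no longer called (adjusted p = 0.263), and Kif17 stood at -0.20 (adjusted p = 0.424).

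**Figure D4:**
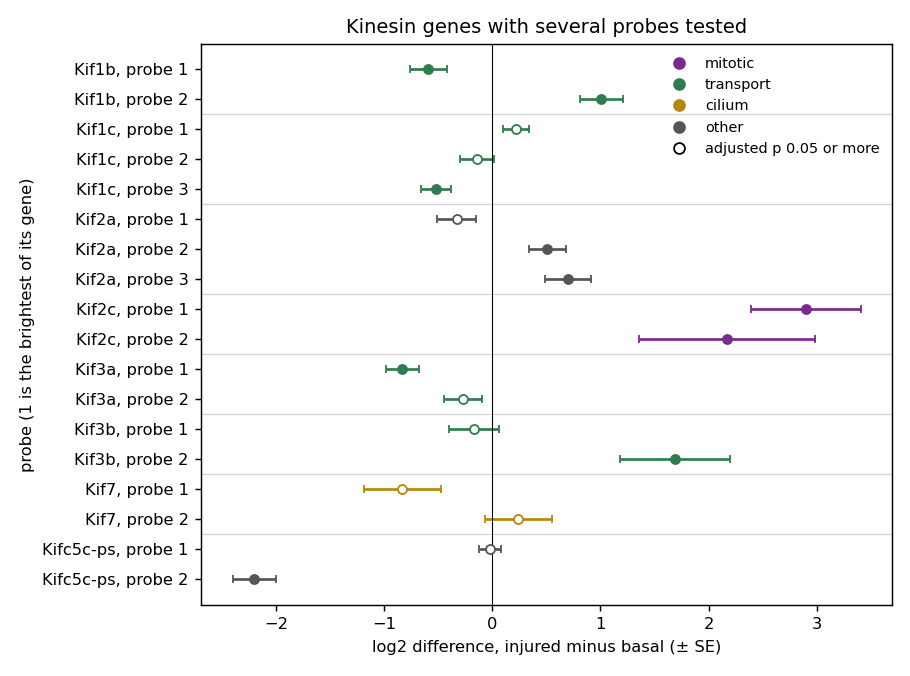
Log2 difference, injured minus basal, with bars of ± 1 SE, of each probe tested in kinesin genes with several tested probes, where probe 1 is the brightest. The Kif1b probes lie on opposite sides of 0, at -0.59 and 1.01, while the Kif2c probes lie at 2.90 and 2.17.

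The proteins that tie kinesins to cargo were called in both directions. Of 16 light chains and adaptors tested, 3 rose (18.8%), 7 fell (43.8%) and 6 were not called, with a median of -0.14. The share called, 62.5%, lay near the 60.1% of all genes. Plekhm2, which links lysosomes to kinesin-1, had -1.53, -1.46, -1.0 and -1.20 on the injured arrays, against 0.44, 0.84, 0.63 and 0.29 on the basal arrays. It was lower on every injured array, at -1.85 (limma adjusted p = 6.3e-05), and Arl8a, the small GTPase that recruits Plekhm2, was lower at -0.89. The scaffold Mapk8ip3 (-0.98) and the adaptor Fez2 (-0.83) were also lower. Klc1, a light chain of kinesin-1, had 2.94, 2.96, 3.07 and 3.28 on the injured arrays, against 1.81, 2.25, 2.53 and 2.24 on the basal arrays. It was higher at 0.86 (limma adjusted p = 0.00276), as was Trak2, the adaptor for mitochondria, at 0.66.

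Cytoplasmic dynein walks the other way along the same tracks, and of its 23 tested subunits and regulators 7 rose (30.4%, beside 35.3% of all genes), 4 fell (17.4%, beside 24.8%) and 12 were not called, with a median of 0.23. The rises were led by regulators and by the dynactin filament: Nde1 (1.65), Pafah1b1 (1.46), Actr1a (1.26) and the cargo adaptor Bicd2 (1.02). Ndel1, the close relative of Nde1, and the light chain Dynlt3 were lower, each at -1.04. Tubulins form the tracks, and of 14 tested 10 rose (71.4%, beside 35.3% of all genes) and 2 fell (14.3%, beside 24.8%), with a median of 1.34. The largest rises were those of Tubb5 (3.23), Tuba1c (3.09), Tuba4a (2.95) and Tuba1b (2.14), and the falls those of Tubg2 (-1.49) and Tuba8 (-0.58). Tubulin genes are close copies of each other, so a probe may read more than its own gene.

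Regulators of microtubule ends and lattice were called higher in 6 of 18 (33.3%, near the 35.3% of all genes) and lower in 7 (38.9%, beside 24.8%), with a median of -0.09. Stathmin (Stmn1), which sequesters tubulin, rose by 3.41 and the plus-end protein Mapre1 by 2.58, whereas Mapre3 of the same family fell by 2.26 and Clasp2 by 1.22. Clip2 and Map2 were above background on all 4 basal arrays and no injured array, which bounds them as at least 4.30-fold and at least 3.35-fold lower. Intraflagellar transport, the cargo train that kinesin-2 pulls into the cilium, was called lower in 6 of 15 genes (40.0%, beside 24.8% of all genes) and higher in 1 (6.67%, beside 35.3%), with a median of -0.42. Dync2li1 passed the filter through the basal arrays alone, as did Clip2 and Map2. Ift172 (-2.05), Ift46 (-1.26) and Ift122 (-0.87) fell, Dync2li1 was at least 1.47-fold lower, and Ift22 rose (0.51).

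**Figure D5:**
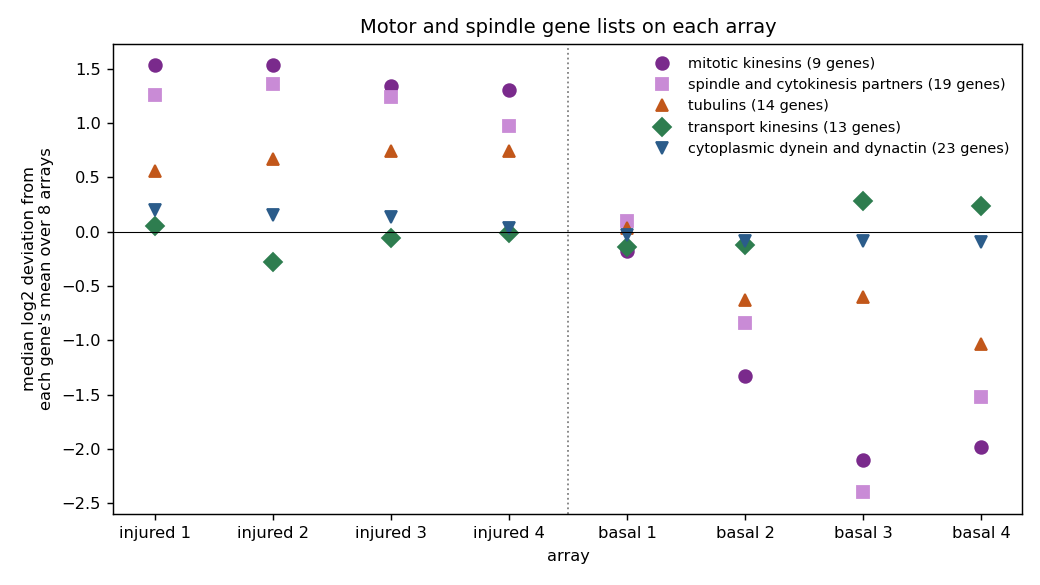
Median deviation of the genes of each list from their own mean over the 8 arrays, for the mitotic and transport kinesins and the lists of their partners, with injured arrays left of basal arrays. Mitotic kinesins and spindle partners lie between 0.97 and 1.53 on the injured arrays and fall apart on the basal arrays, from 0.10 down to -2.40, while transport kinesins stay between -0.28 and 0.28.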

How the data were processed

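Per the file headers, the deposited scanner files hold spot intensity values made by the authors with Agilent Feature Extraction 10.7.3.1, background-subtracted and not scaled between arrays, with probe positions on mm9. The authors' deposited table holds log2 values, read as such from their range; how it was made, beyond the name limma in the labels, is not given in the sources used here. Its columns tracked their own arrays unevenly (r = 0.578 to 0.952 over probes), so it served as an alternative only.

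From the log2 processed signal of each spot its array's 75th percentile was subtracted. Spots marked uneven or outlying (110 to 154 per array) were left out and spots of a probe averaged. Probes were named through the reference gene table (57 of 61 kinesin probes by accession, 4 by symbol). A gene was its brightest probe, tested where well above background on 3 of 4 arrays of a group. The comparison used limma 3.58.1 (R 4.3.3, data.table in version 1.17.8), two-sided, with 6 residual and 2.55 prior degrees of freedom and Benjamini-Hochberg adjustment over 13641 genes (threshold 0.05). Of these, 8806 had an unadjusted p under 0.05. A bound sets the bright group's mean against the lowest signal well above background. The fit was tested on simulated data.

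Kinesins and lists were chosen with earlier results of these data known. All called kinesins are named with their arrays; of each other list, up to 4 called genes in the commoner direction and 2 in the other, plus Cenpe, Kifap3, Klc1 and landmark genes. Alternatives covered normalization, filters, probes, variance models, the replicate block and left-out arrays. Nothing says whether the replicates were separate animals, so p-values measure the spread between these samples.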

Additional observations from a re-analysis of the deposited data

Results flagged for a closer look

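In 3 of 60 groups of 4 kinesin levels, an array lay far from the others, with a gap past Dixon's critical value for 4 samples; chance alone gives such gaps in about 1 group in 20. Kif3b stood at -2.11 on injured array 2, against -1.69 to -1.64 on the other injured arrays, a gene that was not called. Kif18b stood at -1.96 on basal array 1, with its other basal arrays at -5.16 to -5.08, and without that array, when no basal array is above background, it is bounded as at least 3.1-fold higher. Kif5c stood at -3.92 on basal array 3, the other basal arrays being at -2.27 to -1.99, and was called higher in every fit that left out a basal array.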

How the results depend on the processing

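All 19 called kinesins kept their call under quantile normalization, both normexp corrections, median scaling, the trend and robust options and array weights, 18 without a filter (not Kif13a, adjusted p = 0.0530) and 17 with all probes averaged. The filter on all 8 arrays left 12 of them to test, all kept, with 6 kinesins higher and 3 mitotic. The authors' deposited table kept 9 (7 mitotic), with 0 kinesins and 0 transport kinesins lower (limma, also 0 at an unadjusted p under 0.05), a transport median of 0.23, an all-gene median of 0.47, 774 genes lower, and 81.0% of called genes higher against 58.8%. There Kif13a (1.20), Kif17 (0.78), Kif1b (0.55), Kif19a (0.21) and Kif3c (-0.02) reversed, none of them called; averaged probes reversed Kif1b (0.21) and left 3 transport kinesins lower. Normexp, with an offset of 50, gave mitotic medians of 1.26 and 1.25 and all-gene medians of 0.06 and 0.09, median scaling 0.09 and no filter 0.05. Leaving out each array gave 12 to 14 kinesins higher, 4 to 7 lower, 9 mitotic, 2 to 4 and 3 to 5 transport kinesins higher and lower, medians of 2.48 to 3.11 and -0.29 to 0.02, and 4196 to 4910 and 2988 to 3516 genes higher and lower. Without basal arrays 1 and 2, chosen after seeing the data, the medians were 3.65 (2.59 with 4 genes at their bounds) and -0.45. Without injured arrays 2 to 4, likewise chosen, 3 kinesins (3 mitotic, 0 transport) were higher and 0 lower (2 at an unadjusted limma p under 0.05), with 0 transport kinesins lower (1 unadjusted) and 756 and 997 genes higher and lower. Those fits compare fewer arrays; otherwise the cause was not tested. With the replicate number as a block, Kif3c (0.61, adjusted p = 0.0515) lost its call and Kif7 (-0.83, adjusted p = 0.0280) gained one; same-numbered arrays correlated at 0.00 to 0.09, so the numbers are no shown pairing. A slide block was not run, since each slide holds 1 group. Over the 21 alternatives, kinesins still tested lost their call 41 times, reversals included, and gained one 15 times. Signals near background limit Kif15, Kif18b and other dim probes.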
